A study of Mus musculus with 6 samples.

Results

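The matrix metalloproteinases (MMPs), the ADAMTS proteases and the tissue inhibitors of metalloproteinases (TIMPs) were described in mouse embryonic fibroblasts (MEFs), connective-tissue cells grown out of embryos. The members were all protein-coding genes whose symbol is Mmp, Adamts or Timp followed by a number (with an optional letter for Mmp, and leaving out the ADAMTS-like genes). They came to 45 of 51826 genes in the tables, namely 22 Mmp, 19 Adamts and 4 Timp genes. Messenger RNA was sequenced from 3 cultures heterozygous for Lztr1 (Lztr1 +/-, numbered 11, 15 and 18) and 3 wild-type cultures (Lztr1 +/+, numbered 10, 12 and 16). All 6 were of C57BL/6 background, with no treatment named, at passage P2-5, and grown in DMEM with glutamine on uncoated plastic. The LZTR1 protein brings RAS-family proteins to a CUL3 ubiquitin ligase. The comparison asks how loss of 1 Lztr1 copy relates to transcript levels in MEFs. The structure of the mutant allele and the number of embryos behind each culture were not given in the sources used here. All p-values therefore weigh the genotype difference only against the spread between cultures of a genotype, and that spread may be technical.

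MMPs and ADAMTS enzymes are zinc-dependent proteases that act outside the cell or at its surface. MMPs are made as inactive precursors, cleave collagens, gelatin and other matrix proteins, and are held in check by TIMPs, which fill the active site. ADAMTS enzymes carry thrombospondin repeats that anchor them in the matrix, and their known targets include procollagens, the large proteoglycans aggrecan and versican, and fibrillin-bound proteins. In fibroblasts the membrane protease MMP14, together with TIMP2, activates the precursor of MMP2.

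Library totals ran from 11025286 to 21885101 expected counts (estimated reads per gene). CPM below are counts scaled by library total and composition and serve to compare cultures, while TPM are also scaled for length and serve to compare genes. A count of 3 equalled 0.138 to 0.275 CPM. Lztr1 itself measured 45.9, 45.1 and 43.8 CPM in heterozygous cultures 11, 15 and 18, against 93.9, 94.1 and 83.2 CPM in wild-type cultures 10, 12 and 16, which matches each label (log2 difference -1.01, SE 0.066, edgeR adjusted p = 0.00457). The 8 fibroblast markers summed to 8828 to 10005 TPM in heterozygous and 9161 to 10849 TPM in wild-type cultures. Other cell types left a smaller signal: 11 macrophage and neutrophil markers summed to 311 to 698 TPM in heterozygous and 386 to 504 TPM in wild-type cultures, 7 cartilage markers to 74.3 to 267 and 189 to 261 TPM, and 6 erythroid markers to 198 to 477 and 116 to 406 TPM. Leaving out wild-type culture 16 brought the genes that edgeR called to 557 higher and 339 lower in heterozygous cultures, against 0 and 1 with it, so results that rest on it are also given without it. Cultures 10, 12, 15 and 18 were registered first and 11 and 16 later. Neither these sets nor the number runs 10 to 12 and 15 to 18 are named as batches in the labels. Y-linked genes were detected in heterozygous cultures 15 and 18 and in wild-type culture 12.

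Of the 45 members, 35 passed the low-count filter and were tested, namely 14 Mmp, 18 Adamts and 3 Timp genes, and these 35 were also the members with a mean of 1 TPM or more in either genotype. The families were dominated by a few transcripts. Mmp14, Timp1, Timp2, Mmp2 and Timp3 each averaged above 100 TPM in both genotypes, and Adamts1 came next. Mmp14 and Mmp2 together made up 79.1% to 81.6% of the summed MMP transcripts in heterozygous cultures and 78.6% to 80.1% in wild-type cultures.

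**Figure D1:**
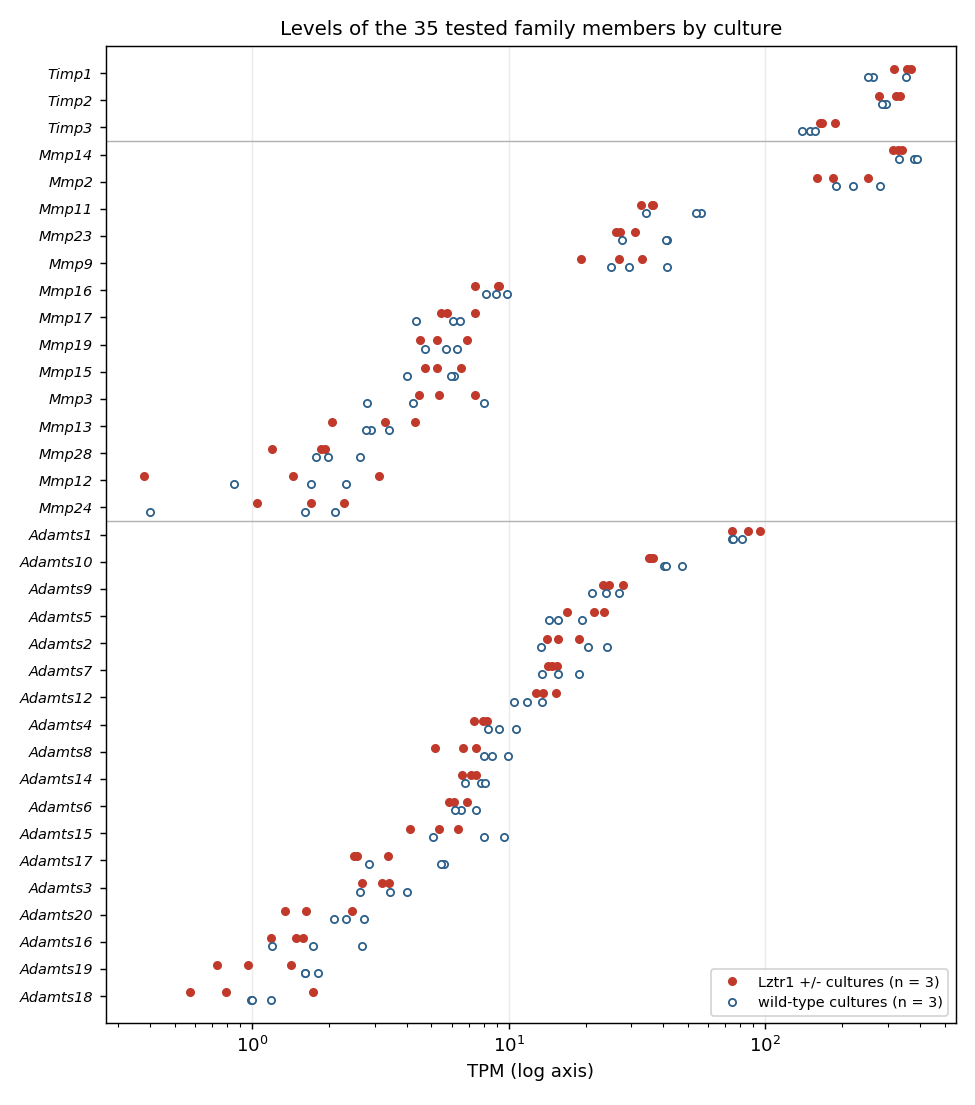
Deposited TPM (log axis) of the 35 tested members, 1 point per culture, with heterozygous cultures as filled points above wild-type cultures as open points in each row. Timp1, Timp2, Timp3, Mmp14 and Mmp2 are the highest, at 139 TPM or more in every culture, and Adamts1 follows at 74.0 to 95.2 TPM.

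Among the inhibitors, Timp3 had the clearest separation of the genotypes. TIMP3 is bound to the matrix and, unlike the other TIMPs, also inhibits ADAMTS and ADAM proteases well. Timp3 (ENSMUSG00000020044.13, chromosome 10 from 86300372 to 86349506 in mm10, plus strand) measured 459.9, 462 and 512 CPM in heterozygous cultures 11, 15 and 18, against 404, 415 and 398 CPM in wild-type cultures 10, 12 and 16. All heterozygous cultures lay above all wild-type cultures. The log2 difference was 0.24 (SE 0.062, 95% interval 0.09 to 0.38), and edgeR (quasi-likelihood F test, Benjamini-Hochberg over 14652 genes) gave an adjusted p of 0.313, so it did not pass. DESeq2 on the same counts gave an adjusted p of 0.0482 for Timp3, which is just under the threshold of 0.05. Cultures 10 to 12 alone gave 0.17 and cultures 15 to 18 alone 0.29. Deposited levels averaged 173 ± 12.3 TPM in heterozygous and 148 ± 8.89 TPM in wild-type cultures (SD, n = 3 each). The expected counts of Timp3 were not whole in any of the 6 libraries, as RSEM gives where it divides reads between genes.

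Timp1, whose product inhibits most secreted MMPs, depended on a single wild-type culture. It lies on the X chromosome (ENSMUSG00000001131.11, 20870166 to 20874735, plus strand). Heterozygous cultures 11, 15 and 18 had 128, 153 and 142 CPM, against 104, 96.3 and 147 CPM in wild-type cultures 10, 12 and 16. Wild-type culture 16 stood within the heterozygous range and the other wild-type cultures below it. The log2 difference was 0.28 (SE 0.15, 95% interval -0.06 to 0.63, edgeR adjusted p = 0.479), with 0.35 within cultures 10 to 12 and 0.0011 within 15 to 18. Without wild-type culture 16 it was 0.49 with an adjusted p of 0.0188 by edgeR, in a comparison where the wild-type cultures left share a number run and a registration set. With a term for Y-linked expression the difference was 0.31 (adjusted p = 0.573).

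Timp2, which inhibits MMPs and also takes part in MMP2 activation, had 534, 539 and 416 CPM in heterozygous cultures 11, 15 and 18, against 510.1, 506 and 527 CPM in wild-type cultures 10, 12 and 16. The groups overlapped, and heterozygous culture 18 was the low one. Their log2 difference was -0.05 (SE 0.099, 95% interval -0.28 to 0.18, edgeR adjusted p = 0.860), and its direction turned to 0.12 once effective gene lengths were used as an offset. The deposited TPM of 312 ± 30.1 in heterozygous and 291 ± 5.08 in wild-type cultures (SD, n = 3 each) also lay in the other direction. RSEM's length for Timp2, an average over its transcripts weighted by their estimated abundance, was 2883, 2750.4 and 2650.2 bases in heterozygous cultures 11, 15 and 18, against 3086, 3111 and 3093 bases in wild-type cultures 10, 12 and 16. These lengths did not overlap between the genotypes, as was the case for 11.3% of the 11218 tested genes with a length that varied (log2 difference of length -0.17, SE 0.033, limma adjusted p = 0.624). Lengths at least as far apart, without overlap, were seen in 3.09% of them. Of the 26 members with a varying length, limma gave an unadjusted p under 0.05 to 1, Timp2, against 5.97% of genes. Timp4 was at the limit of detection, with 1, 2 and 1 counts in heterozygous cultures 11, 15 and 18 and 4, 3 and 0 counts in wild-type cultures 10, 12 and 16.

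The TIMP genes other than Timp2 lie within synapsin genes on the opposite strand. Timp1 is inside Syn1, Timp3 inside Syn3 and Timp4 inside Syn2 in the GENCODE annotation. Whether counting used strand was not given in the sources used here. Reads from these pairs may therefore not be separable by strand. The expected counts of Timp1 and Timp4 were whole in every library, and those of Timp3 in none. Syn1, the most abundant of the hosts, had 5.01, 3.51 and 5.39 TPM in heterozygous cultures 11, 15 and 18 and 4.58, 3.90 and 3.46 TPM in wild-type cultures 10, 12 and 16, far below the Timp1 levels of 252 TPM and more. Syn3 was at or below 1.15 TPM in every culture, while Timp3 was at 139 TPM or more.

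**Figure D2:**
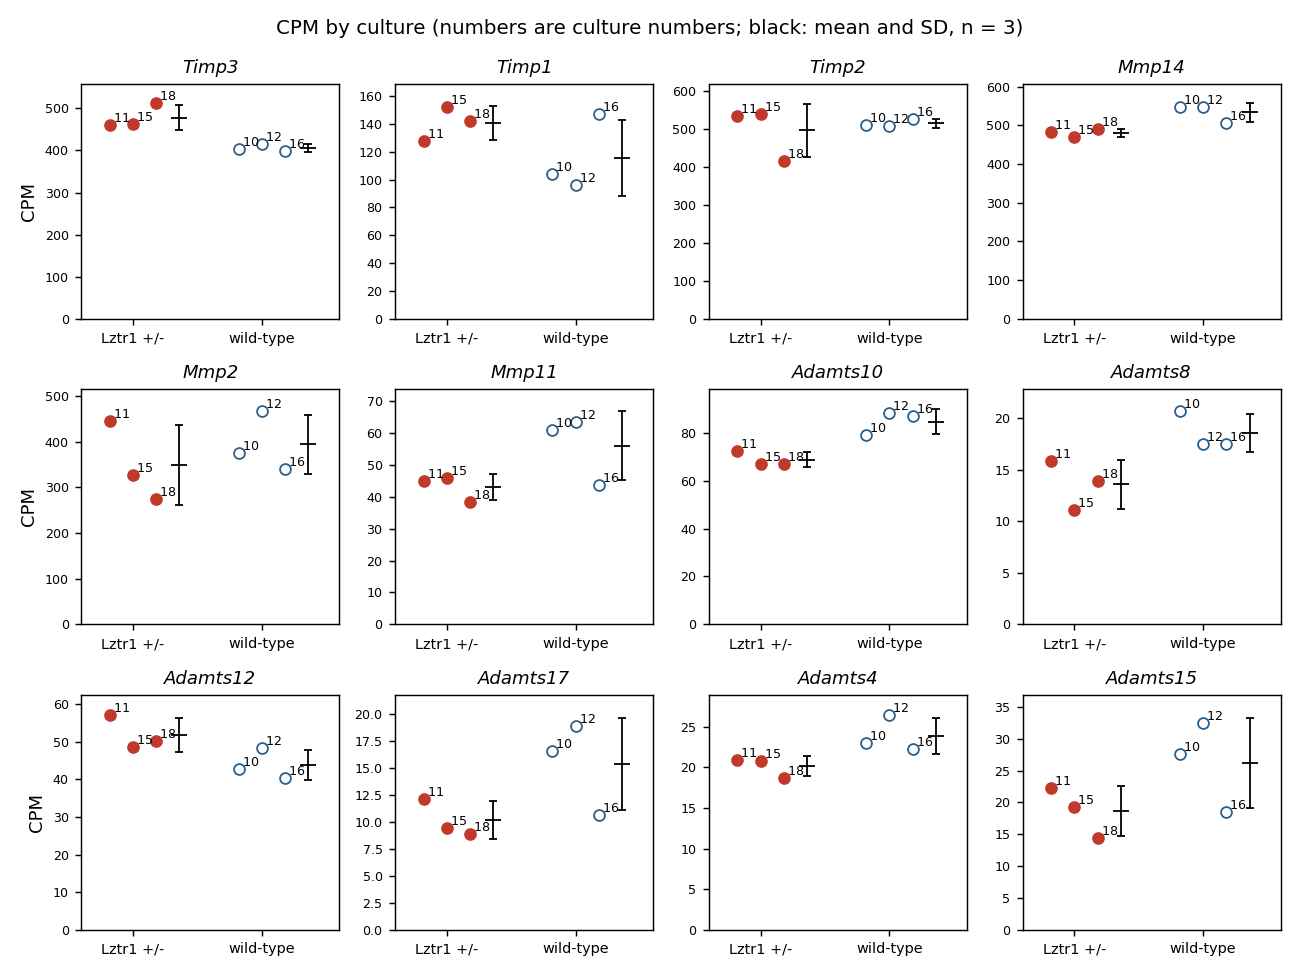
CPM of 12 members in each culture, with heterozygous cultures left of wild-type cultures, culture numbers beside the points, and the mean and SD of each genotype (n = 3) in black. The groups are apart for Timp3, Mmp14, Adamts10, Adamts8, Adamts12 and Adamts4. Wild-type culture 16 falls among the heterozygous cultures for Timp1, Mmp11, Adamts15 and Adamts17. For Timp2 and Mmp2 it does so together with other wild-type cultures.

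Mmp14, the membrane-anchored collagenase that activates pro-MMP2, had the highest mean over the 6 cultures, at 329 ± 12.4 TPM in heterozygous and 368 ± 30.5 TPM in wild-type cultures (SD, n = 3 each). The gene (ENSMUSG00000000957.9) spans 54431612 to 54445364 on chromosome 14, plus strand. Heterozygous cultures 11, 15 and 18 had 482, 471 and 491 CPM, against 548, 548 and 505 CPM in wild-type cultures 10, 12 and 16. The groups did not overlap, and the difference was small, at -0.15 on the log2 scale (SE 0.058, 95% interval -0.28 to -0.02, edgeR adjusted p = 0.374). It was -0.19 within cultures 10 to 12 and -0.07 within 15 to 18.

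Mmp2, a gelatinase secreted by fibroblasts and activated at the cell surface by MMP14, varied more between cultures than between genotypes. It had 445, 327 and 275 CPM in heterozygous cultures 11, 15 and 18, against 377, 467 and 341 CPM in wild-type cultures 10, 12 and 16. The lowest value was in heterozygous culture 18 and the highest in wild-type culture 12, with the groups overlapping. Between genotypes the log2 difference was -0.17 (SE 0.18, 95% interval -0.59 to 0.24, edgeR adjusted p = 0.714), and it was 0.09 within cultures 10 to 12 and -0.18 within 15 to 18. The ratio of Mmp2 to Mmp14 TPM was 0.765, 0.580 and 0.467 in heterozygous cultures 11, 15 and 18 and 0.575, 0.717 and 0.566 in wild-type cultures 10, 12 and 16. Mmp9, the other gelatinase, was lower at 26.8, 19.1 and 33.0 TPM in heterozygous and 25.1, 29.4 and 41.5 TPM in wild-type cultures of the same order.

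Mmp11, or stromelysin-3, an MMP made by stromal cells and activated inside the cell by furin, measured 45.0, 46.1 and 38.5 CPM in heterozygous cultures 11, 15 and 18. Wild-type cultures 10, 12 and 16 had 60.9, 63.6 and 43.6 CPM, of which culture 16 lay in the heterozygous range. The log2 difference was -0.37 (SE 0.14, 95% interval -0.70 to -0.05, edgeR adjusted p = 0.366). It was -0.46 within cultures 10 to 12 but -0.05 within 15 to 18, and 0.05 in the later registered pair of heterozygous culture 11 and wild-type culture 16. Without wild-type culture 16 the difference was -0.52 with an adjusted p of 0.0179 by edgeR. Mmp11 overlaps Chchd10 on the opposite strand.

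The other membrane-anchored MMPs were present at lower levels. Mmp23, a short type of membrane MMP, averaged 28.2 ± 2.64 TPM in heterozygous and 36.7 ± 7.88 TPM in wild-type cultures, with wild-type culture 16 at 27.6 TPM beside 41.4 and 41.1 TPM in cultures 10 and 12. Mmp15 and Mmp16, transmembrane relatives of Mmp14, averaged 5.49 ± 0.913 and 8.55 ± 0.995 TPM in heterozygous cultures, against 5.37 ± 1.16 and 8.99 ± 0.881 TPM in wild-type cultures. The lipid-anchored Mmp17 averaged 6.20 ± 1.03 TPM in heterozygous and 5.63 ± 1.13 TPM in wild-type cultures. Mmp24 had 1.69, 1.04 and 2.27 TPM in heterozygous cultures 11, 15 and 18, against 1.61, 2.11 and 0.40 TPM in wild-type cultures 10, 12 and 16, with the last value standing far below the rest. Of the remaining secreted MMPs, Mmp19 averaged 5.55 ± 1.21 TPM in heterozygous and 5.56 ± 0.788 TPM in wild-type cultures, and Mmp28 (epilysin) 1.66 ± 0.397 and 2.13 ± 0.448 TPM (SD, n = 3 each).

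A cluster on chromosome 9 holds 9 of the Mmp genes within 427 kb (7272514 to 7699585 in mm10), in the order Mmp13, Mmp12, Mmp1b, Mmp3, Mmp10, Mmp8, Mmp27, Mmp20 and Mmp7. These are tandem copies with related sequences. The expected counts of all 9 were nevertheless whole in every library, whereas RSEM gives fractions where it divides reads between genes. This says little for Mmp1b, Mmp7, Mmp8, Mmp10, Mmp20 and Mmp27, which had 0 to 15 counts in a library. Several of them are textbook targets of AP-1, the FOS and JUN transcription factors that act downstream of ERK. RefSeq promoters (GRCm38.p6) matched 31 of the 45 members, and the 250 bases upstream of the start site were searched on both strands for the AP-1 motif TGANTCA, which reads the same on either strand. It occurred in 6 of the 31 promoters, against 6.84% of 27025 promoters of all genes. All 6 were among the 9 cluster genes, and 0 were among the 22 members outside the cluster that had a promoter. Members without a matched promoter, such as Mmp2, Mmp9, Adamts5 and Adamts10, were not searched. The TATA box motif TATAAA occurred in 6 of the 9 and in 2 of the 22, against 12.9% of all promoters. A match is a description of these letters and not a shown binding site. The last 100 bases before the start site are given for the cluster genes that hold the motif, and for Mmp14 and Timp3 as abundant members without it, in lower case with AP-1 and TATA motifs in capitals. They lie at chr9:7272414-7272513 (plus strand), chr9:7388027-7388126 (minus), chr9:7445722-7445821 (plus), chr9:7502242-7502341 (plus), chr9:7628131-7628230 (plus), chr9:7691990-7692089 (plus), chr14:54431498-54431597 (plus) and chr10:86300312-86300411 (plus).
Mmp13: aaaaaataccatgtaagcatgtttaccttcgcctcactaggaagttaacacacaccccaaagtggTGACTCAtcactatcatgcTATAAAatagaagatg
Mmp1b: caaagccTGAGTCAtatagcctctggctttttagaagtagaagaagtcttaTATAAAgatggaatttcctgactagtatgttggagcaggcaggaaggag
Mmp3: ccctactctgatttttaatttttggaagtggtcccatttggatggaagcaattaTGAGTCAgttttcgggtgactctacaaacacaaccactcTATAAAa
Mmp10: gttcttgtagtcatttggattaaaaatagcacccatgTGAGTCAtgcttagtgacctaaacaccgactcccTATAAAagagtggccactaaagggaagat
Mmp20: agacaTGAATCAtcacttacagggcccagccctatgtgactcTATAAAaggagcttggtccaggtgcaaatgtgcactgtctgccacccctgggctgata
Mmp7: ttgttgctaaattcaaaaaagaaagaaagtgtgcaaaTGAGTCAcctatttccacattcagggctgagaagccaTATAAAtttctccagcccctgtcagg
Mmp14: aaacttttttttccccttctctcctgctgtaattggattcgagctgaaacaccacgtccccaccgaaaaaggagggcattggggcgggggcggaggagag
Timp3: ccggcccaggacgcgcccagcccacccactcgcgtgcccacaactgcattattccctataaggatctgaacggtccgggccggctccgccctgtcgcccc

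The AP-1 motif begins 35 bases before the start site in Mmp13, 46 in Mmp3 and 63 in both Mmp10 and Mmp7, with a TATA box downstream of it in each. Levels of the genes with the motif ran from several TPM for Mmp3 and Mmp13 to 0 counts for Mmp20. Mmp3 (stromelysin-1, which cleaves proteoglycans and activates other MMPs) had 7.39, 5.34 and 4.46 TPM in heterozygous cultures 11, 15 and 18, against 4.24, 2.81 and 7.99 TPM in wild-type cultures 10, 12 and 16. Wild-type culture 16 had the highest level and wild-type culture 12 the lowest. The log2 difference between genotypes was 0.22 (SE 0.38, 95% interval -0.66 to 1.10, edgeR adjusted p = 0.842), with 1.03 within cultures 10 to 12 and -0.70 within 15 to 18. Single cultures set its size and direction: it was 0.76 without wild-type culture 16 (adjusted p = 0.171), -0.014 without heterozygous culture 11 and -0.068 without wild-type culture 12. Mmp10 (stromelysin-2), too low to be tested, had 11, 10 and 12 counts in heterozygous cultures 11, 15 and 18 and 5, 4 and 15 counts in wild-type cultures 10, 12 and 16. Scaled for depth it was highest in wild-type culture 16, at 1.37 CPM. Fosl1, an AP-1 subunit induced by ERK, had 13.3, 20.7 and 12.8 CPM in heterozygous cultures 11, 15 and 18 and 7.89, 6.45 and 15.01 CPM in wild-type cultures 10, 12 and 16, so wild-type culture 16 lay above the other wild-type cultures in these 3 genes. Of the other genes with the motif, Mmp13 had 5.08, 4.24 and 4.39 CPM in wild-type cultures 10, 12 and 16. There culture 16 lay between the other wild-type cultures. In the same cultures Mmp1b had 2, 1 and 0 counts, Mmp7 had 0, 0 and 1, and Mmp20 had 0 in each. A link between Fosl1 and these Mmp genes was not tested.

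**Figure D3:**
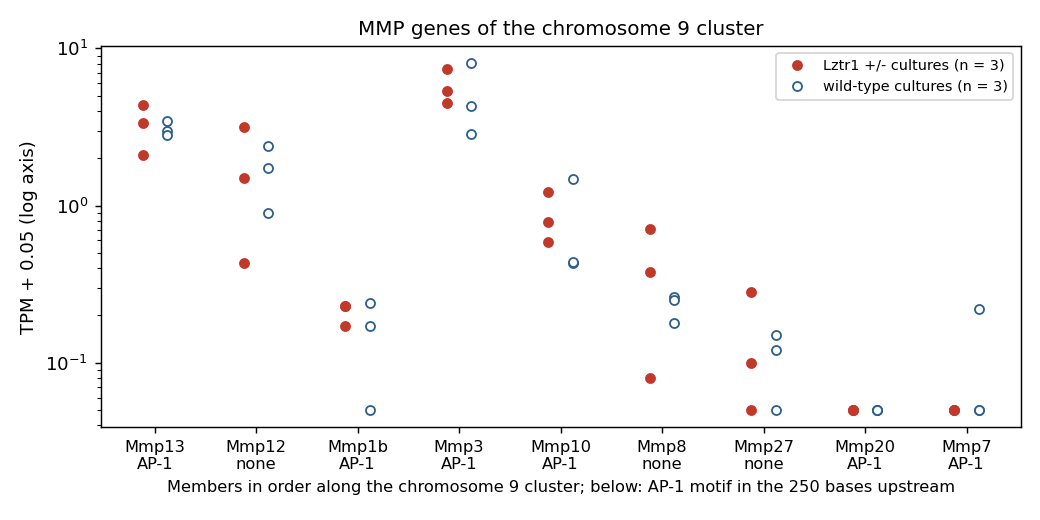
TPM plus 0.05 (log axis) of the 9 Mmp genes of the chromosome 9 cluster in their order along the chromosome, heterozygous cultures left of wild-type cultures, with the presence of an AP-1 motif upstream under each name. Mmp3 and Mmp13, which hold the motif, and Mmp12, which does not, average above 1 TPM, while Mmp20 and Mmp7, which hold it, are at or near 0.

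The other expressed genes of the cluster are known from cell types beyond fibroblasts. Mmp13, a collagenase of hypertrophic cartilage and bone, had 3.30, 4.32 and 2.04 TPM in heterozygous cultures 11, 15 and 18 and 3.40, 2.91 and 2.78 TPM in wild-type cultures 10, 12 and 16. Its lowest value was in heterozygous culture 18, where the 7 cartilage markers also had their lowest sum (74.3 TPM, against 189 to 267 TPM in the other cultures) and the 6 bone markers theirs (17.8 TPM, against 33.2 to 43.9 TPM). Mmp12, the macrophage elastase, varied most of the tested members, by 11.1-fold in CPM between cultures, on 6 to 34 counts in a library. It had 0.38, 1.44 and 3.12 TPM in heterozygous cultures 11, 15 and 18 and 0.85, 2.33 and 1.69 TPM in wild-type cultures 10, 12 and 16. The macrophage and neutrophil markers summed to 311, 698 and 567 TPM in heterozygous cultures 11, 15 and 18. In wild-type cultures 10, 12 and 16 they summed to 402, 386 and 504 TPM. The sum was lowest in heterozygous culture 11, which also had the least Mmp12. It was highest in heterozygous culture 15, while Mmp12 was highest in heterozygous culture 18. All 11 of these markers averaged above 1 TPM, with Lyz2 at 96.8 to 192 TPM, and their part in the levels of Mmp12, Mmp9 and Mmp8 was not tested. Fewer cells of a type and less RNA per cell cannot be told apart in such bulk samples. Mmp8, the neutrophil collagenase, had 1, 13 and 5 counts in heterozygous cultures 11, 15 and 18 and 4, 3 and 2 counts in wild-type cultures 10, 12 and 16.

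The 10 members that were not tested are mostly known from specialised tissues. Mmp20 of tooth enamel and Mmp21, which acts in left-right patterning of the embryo, had 0 counts in all 6 libraries, which allows a level of up to 0.138 to 0.275 CPM per library, counting error only. Mmp7 of epithelia had 1 count, in wild-type culture 16. Adamts13, which cleaves von Willebrand factor in blood, had 1 count each in wild-type cultures 10 and 16. Mmp1b and Mmp27 had at most 3 counts in any library, and Mmp25, a leukocyte MMP, had 1 to 12.

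Adamts1, which cleaves versican and aggrecan, was the most abundant ADAMTS transcript, at 85.0 ± 10.5 TPM in heterozygous and 76.7 ± 3.72 TPM in wild-type cultures (SD, n = 3 each). It lies at 85793827 to 85803113 on chromosome 16, 53.1 kb from Adamts5. Lztr1 is on the same chromosome but far from both, at 17508688 to 17526333. Adamts1 measured 242, 266 and 203 CPM in heterozygous cultures 11, 15 and 18 and 205, 199.9 and 239 CPM in wild-type cultures 10, 12 and 16, with overlapping groups, at a log2 difference of 0.14 (SE 0.11, 95% interval -0.11 to 0.40, edgeR adjusted p = 0.619). Adamts5, the main aggrecanase of mouse cartilage, had the highest positive difference of the tested members, at 0.35 (SE 0.16, 95% interval -0.03 to 0.72, edgeR adjusted p = 0.441). Its cultures had 104, 116.99 and 81.2 CPM in the heterozygous group, against 74.0, 67.0 and 97.8 CPM in the wild-type group, where culture 16 was again the high one. Without that culture the difference of Adamts5 was 0.52 (edgeR adjusted p = 0.0721).

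Adamts10, whose product binds fibrillin microfibrils and whose human gene is mutated in Weill-Marchesani syndrome, had the smallest p of all members. The gene (ENSMUSG00000024299.16) spans 33524204 to 33553782 on chromosome 17, plus strand. Heterozygous cultures 11, 15 and 18 had 72.3, 67.0 and 67.1 CPM, against 78.9, 88.3 and 86.9 CPM in wild-type cultures 10, 12 and 16. Every heterozygous culture was below every wild-type culture, including culture 16. The log2 difference was -0.30 (SE 0.065, 95% interval -0.45 to -0.15), at an adjusted p of 0.313 by edgeR and 0.0746 by DESeq2. It was -0.21 within cultures 10 to 12 and -0.37 within 15 to 18. Adamts17, the gene behind a related human syndrome, had 12.2, 9.48 and 8.88 CPM in heterozygous cultures 11, 15 and 18, against 16.6, 18.9 and 10.6 CPM in wild-type cultures 10, 12 and 16. Wild-type culture 16 lay between the heterozygous cultures. The log2 difference of Adamts17 was -0.58 (SE 0.22, 95% interval -1.09 to -0.08, edgeR adjusted p = 0.365). It was -0.78 with an adjusted p of 0.0352 without wild-type culture 16, and 0.19 in the later registered pair of heterozygous culture 11 and wild-type culture 16.

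Among the proteoglycan-cleaving enzymes, Adamts8 and Adamts15 are neighbours on chromosome 9, 20.1 kb apart on opposite strands. Adamts8 had 15.8, 11.1 and 13.9 CPM in heterozygous cultures 11, 15 and 18, against 20.7, 17.5 and 17.5 CPM in wild-type cultures 10, 12 and 16, with no overlap (log2 difference -0.44, SE 0.15, edgeR adjusted p = 0.325). Adamts15 had 22.2, 19.3 and 14.4 CPM in heterozygous cultures 11, 15 and 18, against 27.6, 32.4 and 18.5 CPM in wild-type cultures 10, 12 and 16, where culture 16 lay in the heterozygous range (-0.48, SE 0.22, edgeR adjusted p = 0.430). Adamts4, an aggrecanase, had 20.97, 20.8 and 18.8 CPM in heterozygous cultures 11, 15 and 18, against 23.0, 26.4 and 22.2 CPM in wild-type cultures 10, 12 and 16, again with no overlap (-0.24, SE 0.097, edgeR adjusted p = 0.387). Adamts9 and Adamts20, versican-cleaving enzymes that act in the skin and palate of the embryo, averaged 25.3 ± 2.42 and 1.80 ± 0.572 TPM in heterozygous and 23.9 ± 2.87 and 2.38 ± 0.323 TPM in wild-type cultures.

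Adamts12 and its close relative Adamts7, which cleave the cartilage protein COMP, differed in direction. Adamts12 had 57.0, 48.5 and 50.2 CPM in heterozygous cultures 11, 15 and 18, against 42.9, 48.3 and 40.3 CPM in wild-type cultures 10, 12 and 16. The groups were just apart, and the log2 difference was 0.25 (SE 0.092, 95% interval 0.04 to 0.46, edgeR adjusted p = 0.362). Adamts7 overlapped between genotypes at 14.8 ± 0.596 TPM in heterozygous and 15.9 ± 2.64 TPM in wild-type cultures (SD, n = 3 each), with a log2 difference of -0.15 (SE 0.12, 95% interval -0.42 to 0.12, edgeR adjusted p = 0.629). The difference between these genes was not tested. Adamts19 was scarce, with 3.92, 2.69 and 1.99 CPM in heterozygous cultures 11, 15 and 18, against 4.86, 4.24 and 4.58 CPM in wild-type cultures 10, 12 and 16. Its log2 difference, -0.63 (SE 0.26, 95% interval -1.23 to -0.04, edgeR adjusted p = 0.390), was the lowest of the tested members. The procollagen N-proteinases, which trim the ends of fibrillar procollagens, averaged 16.2 ± 2.41 TPM for Adamts2, 7.05 ± 0.463 for Adamts14 and 3.10 ± 0.369 for Adamts3 in heterozygous cultures. In wild-type cultures the same genes averaged 19.4 ± 5.49, 7.55 ± 0.682 and 3.38 ± 0.699 TPM. Adamts6, a relative of Adamts10, averaged 6.28 ± 0.522 TPM in heterozygous and 6.72 ± 0.680 TPM in wild-type cultures. Adamts16 and Adamts18 averaged 1.41 ± 0.208 and 1.03 ± 0.616 TPM in heterozygous cultures and 1.87 ± 0.750 and 1.06 ± 0.107 TPM in wild-type cultures.

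**Figure D4:**
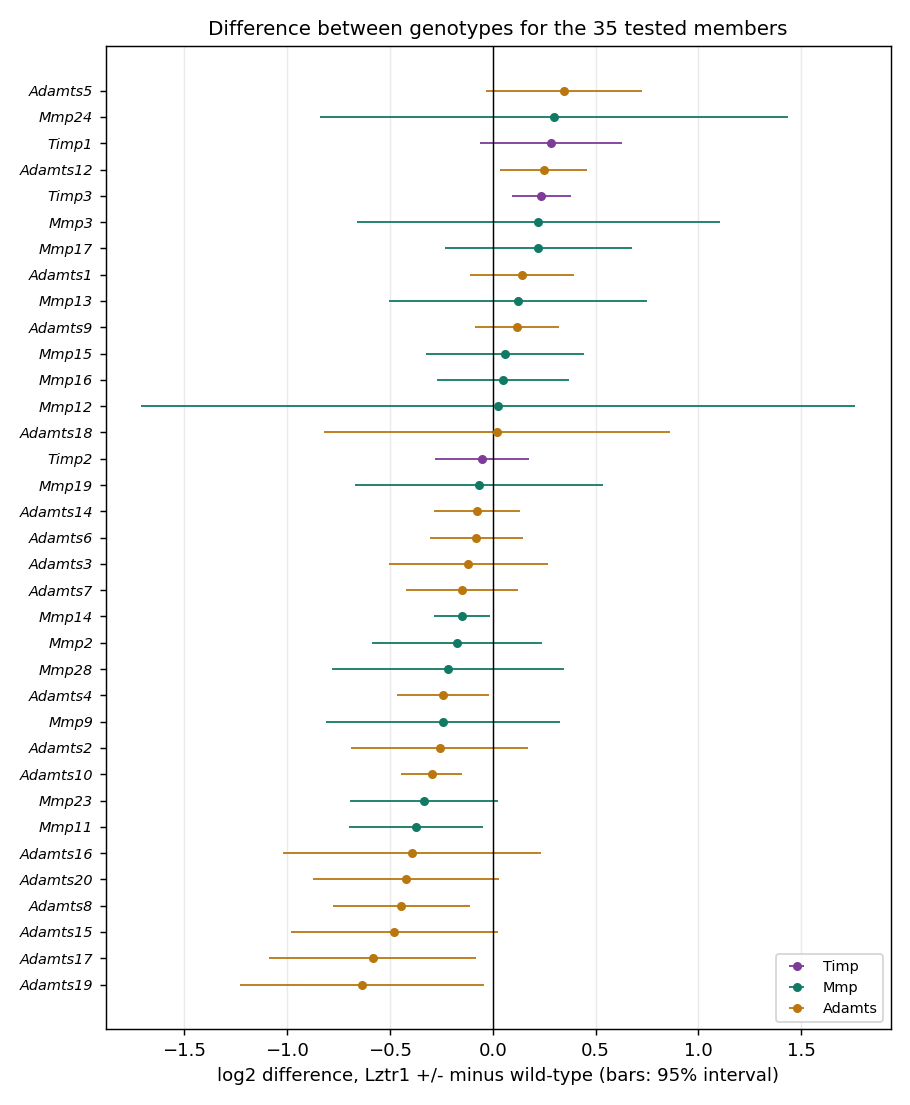
Fitted log2 difference (heterozygous minus wild-type) of the 35 tested members with its 95% interval, coloured by family. The intervals of 9 members exclude 0, 2 above it and 7 below, and no member passed after adjustment over all genes.

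Across the 35 tested members, edgeR called 0 at an adjusted p under 0.05, where it called 0.00683% of the 14652 genes, a single gene, Lztr1. An unadjusted p under 0.05 was found for 2 members higher and 7 lower in heterozygous cultures, or 5.71% and 20%, against 5.56% and 6.65% of all genes tested. The 2 higher members were Timp3 and Adamts12, and the 7 lower ones were Mmp11, Mmp14, Adamts4, Adamts8, Adamts10, Adamts17 and Adamts19. The groups did not overlap for 2 members higher and 5 lower, or 5.71% and 14.3%, against 7.75% and 9.97% of all genes tested. Means were lower in heterozygous cultures for 21 of the 35 members, against 50.4% of all genes, and the median log2 difference was -0.08 over the members and -0.0018 over all genes. By family it was 0.24 for the 3 tested TIMPs, -0.02 for 14 MMPs (7 higher and 7 lower) and -0.19 for 18 ADAMTS genes (5 higher and 13 lower). DESeq2 called 1 member as higher (Timp3) and 0 as lower, against 0.403% and 0.362% of all genes, and gave no adjusted p for 12 of the 35. Limma on log2(TPM + 1) called 0, with 1 higher and 5 lower at an unadjusted p under 0.05. Without wild-type culture 16 edgeR called Timp1 as higher and Mmp11 and Adamts17 as lower, against 3.69% and 2.24% of all genes, a fit in which the wild-type cultures left share a number run and a registration set. In the first registered cultures alone (15 and 18 against 10 and 12) it called 2 members higher (Timp1 and Timp3) and 6 lower (Mmp2, Mmp11, Adamts8, Adamts10, Adamts15 and Adamts17), against 5.45% and 4.39% of all genes, and there genotype and number run cannot be told apart.

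Summed over each family in TPM, inhibitor transcripts had a higher mean and MMP transcripts a lower mean in heterozygous cultures, and the separation of the TIMP sums depended on the scale. The TIMPs summed to 807, 870.3 and 824 TPM in heterozygous cultures 11, 15 and 18, against 705, 703 and 779 TPM in wild-type cultures 10, 12 and 16. These sums did not overlap, but they include Timp2, whose direction in TPM is opposite to that in counts. On scaled counts, an alternative chosen after seeing the data, the TIMPs summed to 1122, 1154 and 1069 CPM in heterozygous cultures and 1018, 1018 and 1072 CPM in wild-type cultures of the same order, so that heterozygous culture 18 lay below wild-type culture 16. Without Timp2 the TPM sums overlapped too, at 484, 535 and 545 TPM in heterozygous and 413, 408 and 494 TPM in wild-type cultures. The MMPs summed to 715, 628 and 631 TPM in heterozygous cultures 11, 15 and 18, against 763, 836 and 664 TPM in wild-type cultures 10, 12 and 16. The ratio of TIMP to MMP transcripts was 1.13, 1.39 and 1.304 in heterozygous cultures and 0.925, 0.841 and 1.17 in wild-type cultures of the same order. Wild-type culture 16 had a higher ratio than heterozygous culture 11, as it did on scaled counts (0.995, 1.17 and 1.104 in heterozygous and 0.895, 0.819 and 1.01 in wild-type cultures) and in TPM without Timp2 (0.677, 0.852 and 0.863 in heterozygous and 0.541, 0.488 and 0.744 in wild-type cultures). The ADAMTS genes summed to 256 ± 10.3 TPM in heterozygous and 262 ± 16.6 TPM in wild-type cultures (SD, n = 3 each). These sums follow their most abundant genes and were not tested.

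**Figure D5:**
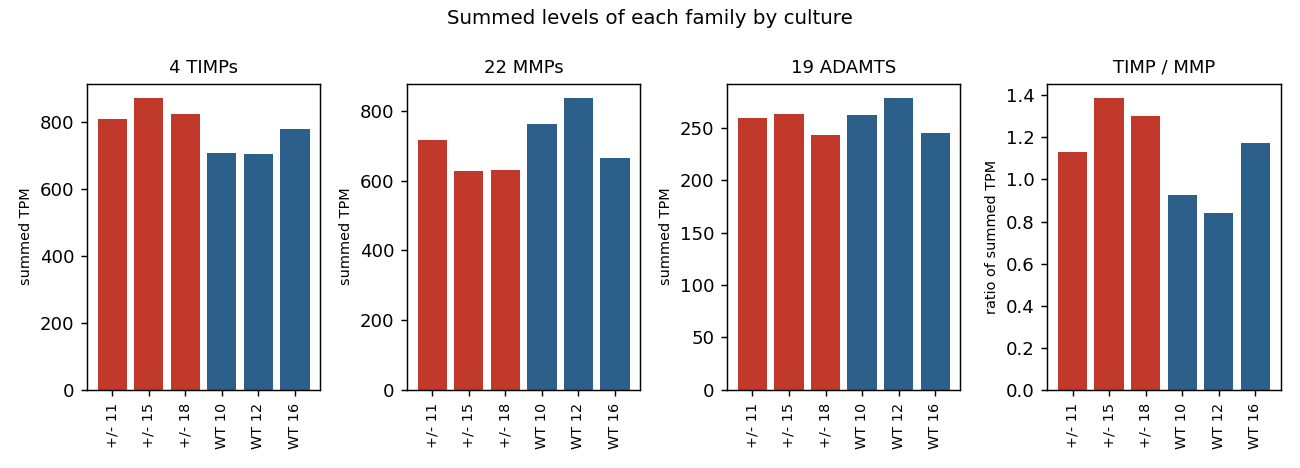
Summed deposited TPM of the TIMP, MMP and ADAMTS genes and the ratio of TIMP to MMP sums in each culture, heterozygous cultures left of wild-type cultures. The ratio runs from 1.13 to 1.39 in heterozygous cultures and from 0.841 to 1.17 in wild-type cultures.

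Genes that act on or with these proteases were taken from 5 lists. Of their 76 tested members edgeR called 0 at an adjusted p under 0.05, against 0.00683% of all genes. DESeq2 called 1 higher (Nid1) and 1 lower (Fmod), against 0.403% and 0.362% of all genes. An unadjusted p under 0.05 was found for 2 higher and 5 lower of 23 matrix substrates, 1 and 1 of 10 ADAM sheddases, 0 and 2 of 7 ADAMTS-like proteins, 1 and 1 of 18 transcription factors, and 0 and 0 of 18 activators and inhibitors, against 5.56% higher and 6.65% lower of all genes tested. Median log2 differences were -0.11 for the substrates, 0.03 for the sheddases, -0.38 for the ADAMTS-like proteins, -0.02 for the transcription factors and 0.07 for the activators and inhibitors.

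Eln, which encodes elastin, a substrate of Mmp12, Mmp2 and Mmp9, had 646, 409 and 499 CPM in heterozygous cultures 11, 15 and 18, against 1131, 1172 and 672 CPM in wild-type cultures 10, 12 and 16. The groups did not overlap, and wild-type culture 16 lay close to heterozygous culture 11 (log2 difference -0.94, SE 0.23, edgeR adjusted p = 0.313). Nid1, a basement membrane protein, had 962, 963 and 949 CPM in heterozygous cultures, against 817, 839.6 and 867 CPM in wild-type cultures of the same order, with no overlap (log2 difference 0.19, SE 0.053, edgeR adjusted p = 0.313). Eln and Nid1 passed without wild-type culture 16, at -1.15 (edgeR adjusted p = 0.0122) and 0.21 (adjusted p = 0.0317). Fmod, a collagen-binding proteoglycan, had 53.2, 48.7 and 35.4 CPM in heterozygous cultures 11, 15 and 18, against 96.1, 90.9 and 52.2 CPM in wild-type cultures 10, 12 and 16, of which culture 16 lay in the heterozygous range. Its log2 difference was -0.79 (SE 0.23, edgeR adjusted p = 0.313), with 0.03 in the later registered pair and -1.01 (adjusted p = 0.0123) without wild-type culture 16.

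Of the sheddases, which release membrane proteins, Adam33 had 6.41, 8.21 and 11.2 CPM in heterozygous cultures 11, 15 and 18, against 15.4, 14.5 and 13.5 CPM in wild-type cultures 10, 12 and 16, with no overlap (log2 difference -0.77, SE 0.20, edgeR adjusted p = 0.313). Adam9 and Adam12 had log2 differences of 0.35 (SE 0.11) and 0.18 (SE 0.083), with edgeR adjusted p of 0.321 and 0.430, and Adam9 passed without wild-type culture 16 (0.49, adjusted p = 0.0120). Among the ADAMTS-like proteins, which share the ADAMTS ancillary domains without the protease, 6 of 7 had lower means in heterozygous cultures. Adamtsl3, Papln and Adamtsl4 had log2 differences of -0.43 (SE 0.14), -0.69 (SE 0.28) and -0.32 (SE 0.16), with edgeR adjusted p of 0.321, 0.389 and 0.455.

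Plau, the urokinase that generates plasmin, an activator of pro-MMPs, had 115, 111 and 92.5 CPM in heterozygous cultures 11, 15 and 18, against 55.9, 61.0 and 109 CPM in wild-type cultures 10, 12 and 16. Wild-type culture 16 stood among the heterozygous cultures, as for Timp1 (log2 difference 0.50, SE 0.23, edgeR adjusted p = 0.430, and 0.87 with an adjusted p of 0.00725 without that culture). Pcsk5, a proprotein convertase, and Plat, the tissue plasminogen activator, had log2 differences of -0.40 (SE 0.18) and 0.16 (SE 0.081), and Pcsk5 passed without wild-type culture 16 (-0.57, edgeR adjusted p = 0.0426). Of the AP-1 subunits, Fosl2 had a log2 difference of 0.28 (SE 0.097, edgeR adjusted p = 0.336), Fosl1 of 0.68 (SE 0.32, adjusted p = 0.435) and Jund of -0.27 (SE 0.10, adjusted p = 0.368). Without wild-type culture 16, Fosl2 (0.41, edgeR adjusted p = 0.00800) and Fosl1 (1.11, adjusted p = 0.0426) passed. In that fit 9 of the 76 related genes were called higher and 10 lower, against 3.69% and 2.24% of all genes.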

How the data were processed

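Expected counts (estimated reads per gene), TPM, FPKM and gene lengths came from the authors' deposited RSEM gene tables, 1 per culture. Per the submitters' processing notes, RSEM 1.3.1, DESeq2 and the mm10 build were used. Aligner, annotation and strand setting were not given in the sources used here. FPKM, as deposited by the authors, was not analysed. Symbols were taken from GENCODE by Ensembl number (51633 of 51826 genes matched). Counts were rounded, filtered with filterByExpr, scaled with TMM and fitted with edgeR 4.0.16 in R 4.3.3 (quasi-likelihood F test, no covariate, Benjamini-Hochberg over 14652 genes, threshold 0.05). DESeq2 1.42.0 and limma 3.58.1 served as alternatives. SE is the size of the log2 difference over the root of F. Within-run differences are on log2(CPM + 0.5). The median SE over genes was 0.114. Intervals and floors cover counting or fitted error only. The fit was tested on simulated counts with known changes. It recovered 53.7% of 1.5-fold, 65.7% of 2-fold and 93.9% of 4-fold changes, with 9 false calls among 14652 genes, so smaller changes can be missed. Fully described were the TIMPs, the 8 members with the highest mean TPM, the 10 with the smallest p and up to 3 genes per related list. The members and lists were chosen with earlier results of these data known.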

Additional observations from a re-analysis of the deposited data

How the results depend on the processing

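No paired analysis was possible because the culture numbers are unique and pair no heterozygous culture with a wild-type culture. Over the 29 genes described in full and 15 alternatives, 398 values kept their direction and side of the threshold, 33 passed it only in the alternative, and 4 changed direction. Those 4 were all Timp2, at 0.12 with an effective length offset, 0.098 with limma on log2(TPM + 1), 0.099 with limma on log2(TPM + 0.1) and 0.065 without heterozygous culture 18 (-0.11 to 0.065 when 1 culture was left out). Over all 35 tested members, 11 changed direction in at least 1 alternative, 10 of them outside those 29 genes (Adamts3, Adamts18, Mmp3, Mmp9, Mmp12, Mmp13, Mmp15, Mmp16, Mmp19 and Mmp24), and 0 of the 11 were called in any. Called members numbered 0 higher and 0 lower with edgeR. DESeq2 called 1 higher, leaving out 1 culture gave 0 to 1 higher and 0 to 2 lower, and the first registered cultures (15 and 18 against 10 and 12) gave 2 higher and 6 lower, in a comparison where genotype and number run cannot be told apart. Called related genes numbered 1 higher and 1 lower with DESeq2, 1 lower without the low-count filter, 0 to 9 higher and 0 to 10 lower when 1 culture was left out, and 12 higher and 13 lower in the first registered cultures. Over all genes, edgeR called 0 higher and 1 lower, DESeq2 59 and 53, no filter 11 and 21, and the first registered cultures 803 and 647. The length offset and limma on either TPM scale called 0 lower. Leaving out 1 culture gave 0 to 557 higher and 0 to 339 lower, with both highest counts without wild-type culture 16. The cause was not tested. The 10 members below the filter had at most 15 counts in a library, and whether a difference could be detected at such low counts was not tested.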

Other observations

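RSEM's gene lengths, compared after seeing the data, were apart between the genotypes for 4 of 26 members with a varying length, namely Timp2, Mmp9, Mmp14 and Adamts8, against 11.3% of 11218 genes. Limma called 0 of these genes after adjustment. The log2 difference of length was -0.17 for Timp2 and 0.041 for Mmp9, but only -0.0057 for Mmp14 and -0.0012 for Adamts8. Mmp9 had the same length of 3175 bases in all heterozygous cultures, against 3019, 3080 and 3164 bases in wild-type cultures 10, 12 and 16. Mmp1a, annotated as a polymorphic pseudogene and therefore no member, had 0 TPM in every culture other than wild-type culture 16, at 0.08 TPM. Counts that were not whole occurred in 6 of the 45 members, namely Timp3, Mmp28, Mmp19, Mmp24, Adamts9 and Adamts8.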
